A study of Mus musculus with 9 samples.

Results

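Tumours labelled as lacking one or the other of a pair of transcription factors that drive the epithelial-to-mesenchymal transition (EMT) were read together here against tumours that carry both. The 6 tumours with the genotype label KPC;TwistcKO (3, here Twist cKO) or KPC;SnailcKO (3, here Snail cKO) were set against the 3 labelled KPC, which makes 6 of the 9 tumours of the series. KPC is the usual name for a mouse strain that develops ductal pancreatic cancer, and every tumour of all 3 groups carried that background and arose spontaneously, per the labels. By the design text the KPC mice had wild-type Twist and Snail, and the cKO mice did not express one of them in the pancreas. That text speaks of 2 mice in a group whereas 3 are labelled, and all 9 were used as labelled. The sources used here do not give the ages of the mice, the allele deleted or the driver of the deletion. RNA came from tumour tissue, and no sorting of cells is named, so each value is a mean over cancer cells, fibroblasts, vessels, immune cells and remaining pancreas, and fewer cells of a type cannot be told apart from less RNA per cell.

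Twist (gene Twist1) and Snail (gene Snai1) are DNA-binding proteins that recognise E-box sequences. In EMT they repress genes of epithelial junctions, and the cell takes on mesenchymal traits such as matrix remodelling and migration. In pancreatic cancer the transition has been studied for its part in spread and in resistance to the nucleoside drug gemcitabine. The pooled comparison asks which genes differed from KPC in the same direction in both cKO groups.

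Values below are log2 intensities of Illumina bead arrays after background correction and quantile normalization, and differences are the mean of both cKO groups minus KPC on that scale, with a positive sign where the cKO tumours were higher. The labels number the 9 mice separately, and p-values measure the spread among their tumours. The 9 tumours differed widely within groups. Snail cKO replicate 2 had the fewest detected probes, 36.9% of all, against 41.7% to 43.3% on the other 8 arrays, and its low values are among those below for Lrrc15, Twist1 and Cyp7b1. Without it the differences of these 3 genes were -1.82, -1.49 and -1.34, against -2.32, -2.07 and -1.49 with all 9 tumours. Twist cKO replicate 2 stood apart in B and plasma cell markers, whose list median was 4.74 above the mean of the 9 tumours, and in duct cell markers at -4.63. KPC replicate 1 had the lowest duct and epithelial medians of its group (-2.41 and -2.19) and the highest macrophage median of all tumours (1.87). Snail cKO replicate 3 had the highest acinar and smooth muscle medians (3.43 and 3.23). The arrays also fell into sets by median raw signal, at 99.1 to 107.2 on the 3 KPC arrays and replicate 3 of each cKO group (set 1) and at 115.4 to 125.4 on replicates 1 and 2 of each cKO group (set 2). Since no KPC array lay in set 2, differences are also given from a fit that has the array set as its block (the blocked fit). For the pooled difference that value is, by construction, the mean of Twist cKO replicate 3 and Snail cKO replicate 3 minus the KPC mean, and so equals the value within set 1.

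No gene passed the test. With limma's moderated test and Benjamini-Hochberg adjustment over all 11537 genes, 0 genes differed between the cKO and the KPC tumours (0% called, smallest adjusted p 0.999). An unadjusted limma p under 0.05 was found for 332 genes (2.88%), where 5% would be counted on if no gene differed. All differences below are therefore descriptions of these 9 tumours, and each gene named had an adjusted p of 0.999. The cKO mean was above KPC for 5153 genes (44.7%) and below for 6384 (55.3%), with a median difference of -0.045 over all genes. The difference between Snail cKO and Twist cKO also passed for 0 genes (smallest adjusted p 0.432). Of the 11537 genes, 436 had an unadjusted limma p under 0.05 there, also less than 5%.

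Of all ways to order 6 and 3 tumours, a fraction of 0.0238 leaves the groups without overlap. Intensities were higher in every cKO tumour than in any KPC tumour for 70 genes (0.607%), and lower for 153 (1.33%). This makes 223 genes (1.93%) without overlap, a share not above that fraction. With cyclic loess in place of quantile normalization these counts were 88 and 119, so the share lying above was 42.5% of such genes rather than 31.4%. The median size of these differences was 0.64. In 21 of them (0.182% of all genes) both cKO groups also differed from KPC by at least 1 in the same direction, 9 higher (0.078%) and 12 lower (0.104%). Left out of the names below are 2 of the higher and 1 of the lower genes, which have clone or predicted names. Without the condition on single tumours, 128 of the 11537 genes were at least 1 higher and 123 at least 1 lower in both cKO groups, which share the same KPC tumours. At the edge of the size condition, Atn1 and Zfp354a were just inside, with smaller group differences of 1.003 and 1.0061, and Kctd14 and Lrp11 just outside at 0.981 and 0.982.

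**Figure D1:**
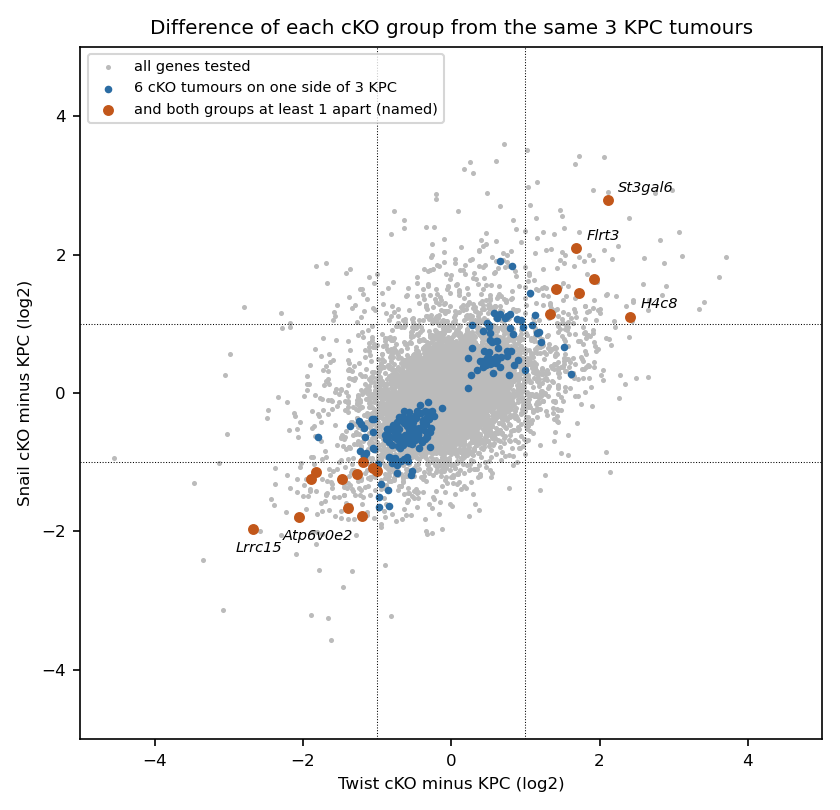
Log2 difference of each of 11537 genes from the same 3 KPC tumours, in Twist cKO on the horizontal and Snail cKO on the vertical axis, with dotted lines at 1 and -1. Blue points are genes whose 6 cKO tumours lay on one side of the 3 KPC tumours, and orange points the 18 named genes in which both groups were also at least 1 apart, 7 at the upper right and 11 at the lower left. Both axes are set against the same KPC tumours.

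The 18 named genes were chosen by these values, so their differences are given as a description. Among the 7 that were higher in the cKO tumours, the largest difference was in St3gal6, a sialyltransferase that caps glycans of surface proteins with sialic acid. Its intensity was 9.79, 10.65 and 10.94 in the Twist cKO tumours and 10.70, 12.59 and 10.11 in the Snail cKO tumours, against 7.16, 9.39 and 8.49 in the KPC tumours. The difference was 2.45 (SE 0.65), or 5.46-fold, and a second probe gave 1.29. Flrt3, a transmembrane protein of cell adhesion and fibroblast growth factor signalling, was at 9.01, 9.74 and 10.38 in the Twist cKO tumours and 9.50, 10.68 and 10.16 in the Snail cKO tumours, against 7.15, 8.81 and 8.10 in the KPC tumours. The lowest cKO tumour was thus just above the highest KPC tumour, and the mean difference was 1.89 (SE 0.46), or 3.71-fold. It was 1.69 in Twist cKO and 2.09 in Snail cKO, and 2.25 in the blocked fit. A second Flrt3 probe was undetected on every array.

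Promoter sequences are shown, as a description, for the named genes that hold an E-box of the kind given for these factors. By label, each of the 6 tumours lacks an E-box binder, and binding was not tested. RefSeq (GRCm38.p6) gave 16 promoter windows, 250 bases before to 50 after a start, for 13 of the 18 genes. They were searched on both strands for the motif CAGGTG, often given for Snail, and for those given for Twist, which are CATCTG and, as a palindrome, CATATG. The printed windows hold 1 match each, so no matches overlap. CAGGTG was in 2 of the 16 windows and in 20.2% of all 32851 promoters, CATCTG in 2 and in 17.2%, and CATATG in 0 and in 3.91%. Any of the 3 was in 4 of the 16 windows and in 36.4% of all promoters. A match describes letters and is not a site of binding. Capitals mark the match. St3gal6 has a further window without one. The windows are chr2:140671427-140671726, minus strand (Flrt3), chr16:58523377-58523676, minus strand (St3gal6), chr6:48537319-48537618, plus strand (Atp6v0e2) and chr4:24851075-24851374, minus strand (Klhl32). The match begins 102 bases before the start in Flrt3, 28 after it in St3gal6, 75 before it in Atp6v0e2 and 177 before it in Klhl32.
Flrt3: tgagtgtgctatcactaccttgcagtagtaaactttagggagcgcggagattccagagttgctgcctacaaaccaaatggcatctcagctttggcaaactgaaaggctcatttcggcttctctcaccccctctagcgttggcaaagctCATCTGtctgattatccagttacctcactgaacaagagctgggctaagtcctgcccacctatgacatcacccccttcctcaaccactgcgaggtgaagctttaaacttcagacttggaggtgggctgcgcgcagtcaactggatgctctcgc
St3gal6: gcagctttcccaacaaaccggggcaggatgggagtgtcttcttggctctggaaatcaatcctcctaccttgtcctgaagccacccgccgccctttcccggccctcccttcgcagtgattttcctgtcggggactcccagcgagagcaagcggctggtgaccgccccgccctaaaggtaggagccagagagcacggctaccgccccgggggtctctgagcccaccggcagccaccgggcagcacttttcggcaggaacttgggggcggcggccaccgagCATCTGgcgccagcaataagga
Atp6v0e2: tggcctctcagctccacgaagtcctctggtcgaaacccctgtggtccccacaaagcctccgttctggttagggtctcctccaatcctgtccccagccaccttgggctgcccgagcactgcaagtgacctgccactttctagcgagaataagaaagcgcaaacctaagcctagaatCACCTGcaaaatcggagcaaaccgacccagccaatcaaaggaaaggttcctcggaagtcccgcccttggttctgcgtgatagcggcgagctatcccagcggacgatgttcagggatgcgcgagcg
Klhl32: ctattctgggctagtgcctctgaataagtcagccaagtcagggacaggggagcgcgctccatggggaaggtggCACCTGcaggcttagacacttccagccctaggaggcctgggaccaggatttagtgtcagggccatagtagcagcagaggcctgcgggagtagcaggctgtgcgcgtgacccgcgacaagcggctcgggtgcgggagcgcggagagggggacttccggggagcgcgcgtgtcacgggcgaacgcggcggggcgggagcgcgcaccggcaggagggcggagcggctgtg

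The other 5 genes that were higher have varied roles. H4c8, a histone H4 gene used in DNA replication, was at 10.18, 8.74 and 10.65 in the Twist cKO tumours and 9.14, 8.19 and 8.31 in the Snail cKO tumours, against 7.66, 7.62 and 7.06 in the KPC tumours. It was higher in Twist cKO (2.41) than in Snail cKO (1.10) relative to KPC, and the gap between these groups did not pass the test (limma adjusted p 0.986, 0.0302 before adjustment). Kif3b, a kinesin motor subunit of transport in cilia, varied little among the 6 cKO tumours, at 8.12, 7.79 and 8.02 in the Twist cKO tumours and 8.22, 8.26 and 7.72 in the Snail cKO tumours, against 7.48, 6.87 and 5.35 in the KPC tumours. The spread was wider in KPC, and without KPC replicate 3 the difference of 1.46 (SE 0.43) was 0.85. A second Kif3b probe gave 0.38. Lrrc57 had the same pattern, at 7.18, 8.07 and 7.75 in the Twist cKO tumours and 7.70, 7.05 and 7.41 in the Snail cKO tumours, against 6.75, 6.70 and 4.38 in the KPC tumours, with a difference of 1.58 (SE 0.53) and of 0.80 without KPC replicate 3. Only 2 KPC arrays detected Lrrc57. Fam83f, of a family of proteins that bind casein kinase 1, was at 8.73, 6.90 and 7.89 in the Twist cKO tumours and 7.84, 7.92 and 6.90 in the Snail cKO tumours, against 4.85, 6.78 and 6.12 in the KPC tumours. It was undetected on 1 KPC array, and the difference was 1.78 (SE 0.53). Hspa1a, the inducible heat shock protein 70, was at 7.87, 8.20 and 7.18 in the Twist cKO tumours and 7.55, 8.03 and 7.13 in the Snail cKO tumours, against 5.65, 7.02 and 6.61 in the KPC tumours. Its difference of 1.24 (SE 0.38) was 0.73 in the blocked fit, and the cKO tumours of array set 2 were the highest.

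**Figure D2:**
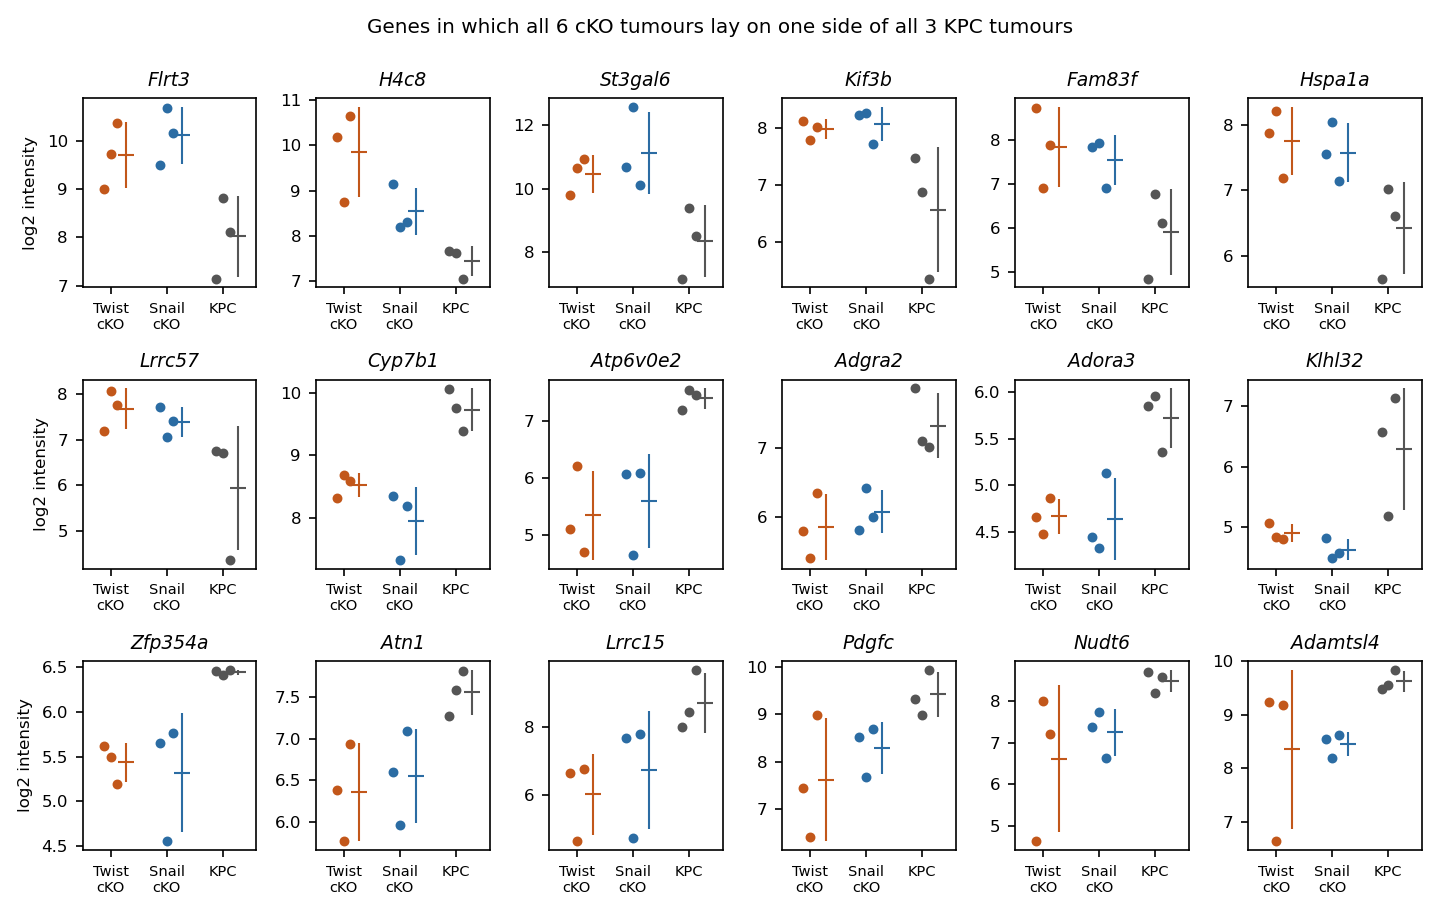
Log2 intensity of the 18 named shared genes in each tumour, 3 points per group, with the group mean and SD beside them; each panel has its own vertical axis. In the first 7 panels, Flrt3 to Lrrc57, every cKO tumour lies above every KPC tumour, and in the other 11 every cKO tumour lies below, by as little as 0.0035 in Pdgfc and as much as 0.98 in Atp6v0e2.

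Of the 11 genes that were lower, 4 are known from the tumour stroma or its vessels. Lrrc15, a membrane protein of fibroblasts activated by transforming growth factor beta, was at 6.65, 4.65 and 6.78 in the Twist cKO tumours and 7.68, 4.75 and 7.79 in the Snail cKO tumours, against 8.01, 8.43 and 9.68 in the KPC tumours. Twist cKO replicate 2 and Snail cKO replicate 2 were near background, and the difference was -2.32 (SE 0.79), or 4.99-fold lower, and -1.42 in the blocked fit. Pdgfc, the ligand PDGF-C that signals to fibroblasts through the PDGF receptor alpha, was at 7.44, 6.39 and 9.00 in the Twist cKO tumours and 8.53, 7.66 and 8.69 in the Snail cKO tumours, against 9.34, 9.00 and 9.95 in the KPC tumours. Twist cKO replicate 3 at 8.996 and KPC replicate 2 at 8.999 were nearly equal, the difference was -1.48 (SE 0.54) and -0.59 in the blocked fit, and a second probe gave -0.65. Adamtsl4, a matrix protein that binds fibrillin, was at 9.24, 6.63 and 9.18 in the Twist cKO tumours and 8.55, 8.19 and 8.62 in the Snail cKO tumours, against 9.47, 9.56 and 9.84 in the KPC tumours. Its difference of -1.22 (SE 0.55) was -0.79 without Twist cKO replicate 2 and -0.72 in the blocked fit. Adgra2, an adhesion receptor that acts in vessel growth, was at 5.80, 5.41 and 6.35 in the Twist cKO tumours and 5.80, 6.41 and 6.00 in the Snail cKO tumours, against 7.86, 7.09 and 7.01 in the KPC tumours. The groups were 0.59 apart at their nearest tumours, and the difference was -1.36 (SE 0.31) and -1.14 in the blocked fit. The fibroblast and matrix genes as a list are given further on, with medians that spanned -1.52 to 0.48 in the cKO tumours and -0.077 to 0.81 in the KPC tumours. The part of fibroblast content in these 4 genes was not tested.

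A further 3 belong to metabolism and transport. Cyp7b1, the oxysterol hydroxylase of the alternative bile acid pathway, was at 8.32, 8.69 and 8.60 in the Twist cKO tumours and 8.35, 7.33 and 8.19 in the Snail cKO tumours, against 10.06, 9.76 and 9.38 in the KPC tumours. The difference was -1.49 (SE 0.29), or 2.81-fold lower, with the smallest unadjusted p of all genes in this comparison (0.000711 in limma), and -1.34 in the blocked fit. Atp6v0e2, a subunit of the proton pump that acidifies organelles, was at 5.11, 6.21 and 4.70 in the Twist cKO tumours and 6.07, 4.64 and 6.08 in the Snail cKO tumours, against 7.19, 7.54 and 7.44 in the KPC tumours. The 3 KPC tumours were close together and the nearest cKO tumour was 0.98 lower, with a difference of -1.92 (SE 0.43), or 3.8-fold lower, and -2.00 in the blocked fit. It was undetected on 2 of the 6 cKO arrays. Nudt6, a hydrolase whose gene overlaps that of fibroblast growth factor 2 on the other strand, was at 4.62, 8.01 and 7.21 in the Twist cKO tumours and 7.37, 7.75 and 6.64 in the Snail cKO tumours, against 8.71, 8.20 and 8.57 in the KPC tumours. Twist cKO replicate 1 was near background and the other cKO tumours were not, and the difference was -1.57 (SE 0.67).

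The remaining 4 act in signalling or regulation. Adora3, the adenosine A3 receptor, was at 4.66, 4.48 and 4.86 in the Twist cKO tumours and 4.45, 4.33 and 5.14 in the Snail cKO tumours, against 5.85, 5.95 and 5.35 in the KPC tumours. It was above background on all 3 KPC arrays, on 0 of the 3 Twist cKO arrays and on 1 of the Snail cKO arrays, so that KPC was at least 1.67-fold above Twist cKO. The pooled difference was -1.07 (SE 0.26). Klhl32, of the kelch-like family, was at 5.07, 4.84 and 4.80 in the Twist cKO tumours and 4.83, 4.49 and 4.58 in the Snail cKO tumours, against 6.57, 5.19 and 7.13 in the KPC tumours. It was detected in every KPC tumour and on 1 of the 6 cKO arrays, and KPC was at least 2.31-fold above Snail cKO, where it was detected on none. The pooled difference was -1.52 (SE 0.39). Zfp354a, a zinc finger protein, was at 5.62, 5.49 and 5.20 in the Twist cKO tumours and 5.65, 4.55 and 5.76 in the Snail cKO tumours, against 6.45, 6.41 and 6.46 in the KPC tumours. The 3 KPC tumours were within 0.1 of each other, and the difference was -1.06 (SE 0.30). Atn1, the transcriptional corepressor atrophin 1, was at 6.38, 5.77 and 6.94 in the Twist cKO tumours and 6.59, 5.96 and 7.09 in the Snail cKO tumours, against 7.27, 7.58 and 7.81 in the KPC tumours, with a difference of -1.10 (SE 0.34) that was -0.54 in the blocked fit.

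**Figure D3:**
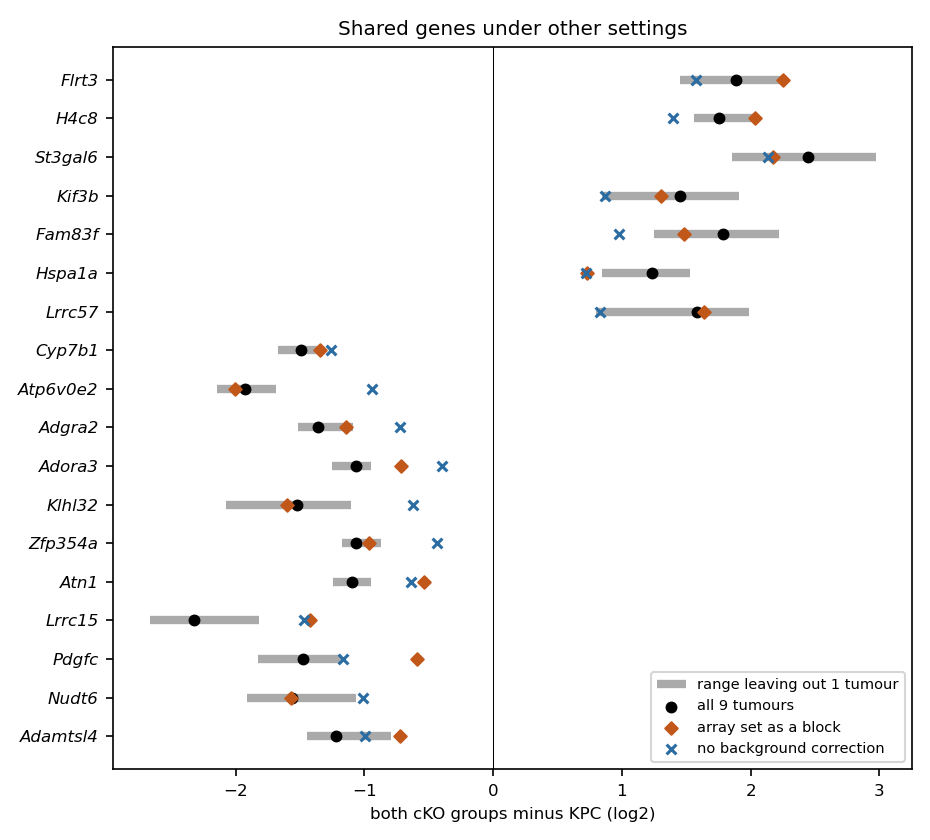
Log2 difference of both cKO groups from KPC for the 18 named genes: black points for all 9 tumours, grey bars for the range when each tumour is left out in turn, orange diamonds in the blocked fit and blue crosses with no background correction. All 18 stay on their side of 0, which their choice as genes without overlap fixed in advance for the grey bars, orange diamonds and blue crosses. Hspa1a, Atn1, Lrrc15, Pdgfc and Adamtsl4 shrink by more than 1.5 times in the blocked fit.

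The targeted genes were read as a check on the labels. Twist1 was at 4.60, 4.67 and 5.23 in the Twist cKO tumours and 8.66, 4.65 and 7.56 in the Snail cKO tumours, against 9.19, 7.46 and 7.25 in the KPC tumours. The 3 Twist cKO tumours and Snail cKO replicate 2 were all at 5.23 or below, and the other Snail cKO tumours were in the range of KPC. The pooled difference was -2.07 (SE 0.82), with an exact two-sided permutation p of 0.143 over the 6 cKO and 3 KPC tumours, where 0.0238 is the smallest p possible. Snai1 was at 7.32, 5.65 and 7.72 in the Twist cKO tumours and 7.79, 6.08 and 7.30 in the Snail cKO tumours, against 7.91, 7.46 and 6.89 in the KPC tumours. It was detected on every array, and the groups overlapped, with a difference of -0.44 (SE 0.54) and an exact permutation p of 0.548, and the sign turned, to 0.093, in the blocked fit. A second Snai1 probe was undetected throughout. Whether the probes fall inside the deleted parts is unknown here, so Snai1 does not check the labels, and the Snail cKO tumours are called so by label alone.

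Of the 14 EMT transcription factors listed, 13 were tested, and 11 had a lower mean in the cKO tumours and 2 a higher one (median -0.30, against -0.045 over all genes). None passed the test in limma, and 2 of the 13 had an unadjusted p under 0.05, Twist1 and Foxc2, against 2.88% of all genes. Twist1 is the gene targeted, by label, in the Twist cKO tumours. It differed from KPC by -3.13 in Twist cKO and by -1.0049 in Snail cKO, so its p is not a finding about the other factors. Foxc2 is a forkhead factor induced in EMT and was at 4.56, 4.70 and 5.21 in the Twist cKO tumours and 5.38, 4.49 and 4.62 in the Snail cKO tumours, against 7.38, 6.31 and 5.32 in the KPC tumours. It was above background on all KPC arrays and on 2 of the 6 cKO arrays. Only KPC replicate 3, at 5.32, was below the highest cKO tumour, at 5.38. In the exact permutation test Foxc2 gave p = 0.0476, unadjusted for the number of genes read. The same p was found for other named genes, which include H2ac19, H1f2, H2bc4, Fap, Ltbp2, Zmat3 and Mcm2. The difference of Foxc2 was -1.51 (SE 0.44). It was nearly the same in Twist cKO (-1.51) and Snail cKO (-1.51), -1.42 in the blocked fit and -0.99 without KPC replicate 1. Twist2, the close relative of Twist1, was at -0.76, Snai2, also known as Slug, at -0.48 and Snai3 at 0.22. Zeb1 and Zeb2, which repress E-cadherin, were at -0.17 and -0.30. Prrx1 was at -0.22, the E protein genes Tcf3 and Tcf4 at 0.43 and -0.22, Sox4 at -0.51 and Gsc at -0.18. A second Tcf3 probe gave -0.49 and another Prrx1 probe 0.072, opposite in sign. In the blocked fit the number of higher means was 7 of 13, and it was also 7 with KPC replicate 1 and Twist cKO replicate 2 left out. Leaving out 1 tumour at a time, the list median ran -0.50 (without KPC replicate 3) to -0.069 (without KPC replicate 1). Prrx1 and Gsc had opposite signs in the cKO groups, at -0.57 and 0.22 in Twist cKO and 0.13 and -0.57 in Snail cKO.

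**Figure D4:**
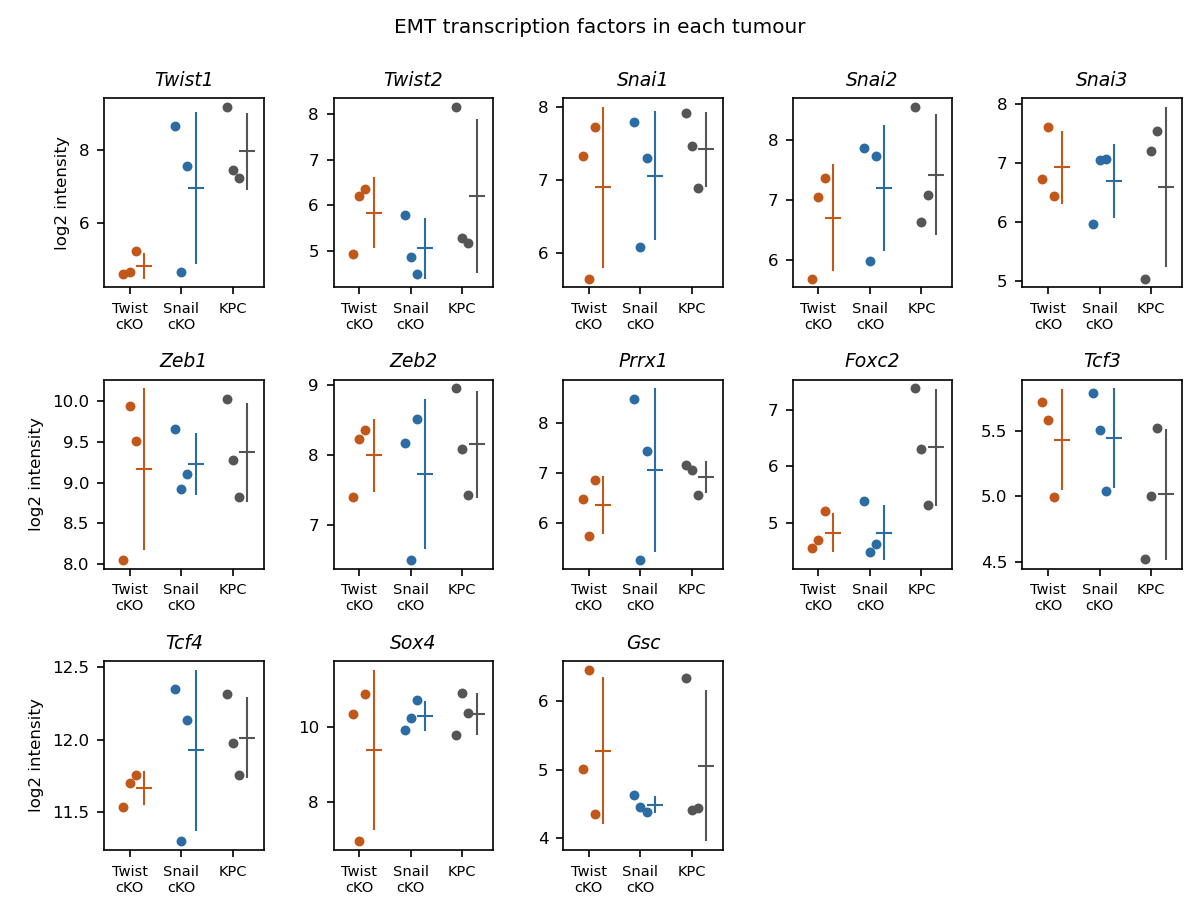
Log2 intensity of 13 EMT transcription factors in each tumour, 3 points per group with the group mean and SD beside them; each panel has its own vertical axis. Twist1 is low in the 3 Twist cKO tumours and in 1 Snail cKO tumour, Foxc2 is low in all 6 cKO tumours and overlaps KPC by 1 tumour, and the groups overlap in every other panel.

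The epithelial and mesenchymal lists overlapped between groups in their medians, and no member passed the test in limma. Epithelial junction and keratin genes had higher means in the cKO tumours for 16 of 23 members (median 0.071), with medians of -0.27 in Twist cKO and 0.52 in Snail cKO. The keratin gene Krt20 was at 1.83 (SE 1.40) and, without KPC replicate 1, at 0.45. Ovol1, a repressor of EMT genes, was undetected in every KPC tumour and was at least 1.21-fold higher in the cKO tumours, in 3 of which it was detected. That bound rests on Snail cKO replicate 3, since the log2 difference of Ovol1 was 0.54 with all tumours and 0.22 without it. The list median ran -0.85 (without KPC replicate 1) to 0.73 (without KPC replicate 3) with 1 tumour left out, and the count of higher members was 22 in the blocked fit and 4 with KPC replicate 1 and Twist cKO replicate 2 left out. Mesenchymal and invasion genes had lower means for 14 of 17 (median -0.48), among them the matrix metalloproteinases Mmp3 at -1.71 (SE 1.05) and Mmp14 at -0.78 (SE 0.65). Mmp3 was at -0.69 without KPC replicate 1, -2.99 without KPC replicate 3 and -0.44 in the blocked fit, and Mmp14 at -0.31 without Twist cKO replicate 2 and 0.25 in the blocked fit. Fibroblast and matrix genes had lower means for 15 of 17 (median -0.54). Fap, a protease of activated fibroblasts, was at 6.91, 7.40 and 6.77 in the Twist cKO tumours and 6.30, 5.11 and 5.29 in the Snail cKO tumours, against 6.92, 7.76 and 7.47 in the KPC tumours. Its difference of -1.09 (SE 0.34) was -0.36 in Twist cKO and -1.81 in Snail cKO. The collagen gene Col5a2 was at -1.35 (SE 0.88), at -0.72 without Twist cKO replicate 2 and at -0.61 on a second probe. These lower means depended on the arrays used, since in the blocked fit 13 mesenchymal and 8 fibroblast genes had higher means, and with KPC replicate 1 and Twist cKO replicate 2 left out 8 and 7. With single tumours left out the mesenchymal median ran -0.74 (without Snail cKO replicate 1) to -0.18 (without Twist cKO replicate 2) and the fibroblast median -1.03 (without KPC replicate 3) to -0.18 (without Snail cKO replicate 2). Of TGF-beta pathway genes 11 of 17 were lower (median -0.072), but in the blocked fit 12 of 17 were higher, and the median turned positive there (0.029) and without KPC replicate 2 (0.022). Named members were the matrix protein Ltbp2, which binds fibrillin, at -0.68 (SE 0.23) and detected on 3 KPC arrays and 1 cKO array, and Pmepa1, a target of the pathway, at -1.37 (SE 0.82). Pmepa1 was at -0.87 without Twist cKO replicate 2 and at 0.14 in the blocked fit.

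Replication-dependent histone genes encode the proteins that package new DNA. Higher means were found for 8 of 9 members (median 0.70, 0.98 in Twist cKO and 0.45 in Snail cKO), for 8 in the blocked fit and for 9 with KPC replicate 1 and Twist cKO replicate 2 left out. With 1 tumour left out the histone median ran 0.45 (without KPC replicate 3) to 1.24 (without KPC replicate 1). H2ac19 was at 10.79, 10.58 and 10.48 in the Twist cKO tumours and 10.16, 9.67 and 8.93 in the Snail cKO tumours, against 9.15, 8.75 and 8.49 in the KPC tumours. Of the cKO tumours, 5 of 6 lay above all KPC tumours, and Snail cKO replicate 3 lay within them, with a difference of 1.31 (SE 0.30). The linker histone gene H1f2 was at 13.60, 12.21 and 13.05 in the Twist cKO tumours and 11.58, 10.97 and 11.94 in the Snail cKO tumours, against 11.16, 10.77 and 10.46 in the KPC tumours, with a difference of 1.43 (SE 0.36) and 1.54 on a second probe. H2bc4 was at 1.39 (SE 0.47), and at 0.82 without KPC replicate 3. All 3 were more distant from KPC in Twist cKO (1.82, 2.15 and 1.68) than in Snail cKO (0.79, 0.70 and 1.10), a gap that did not pass the test in any of them (limma adjusted p 0.986). Other genes of the cell cycle had higher means for 9 of 19 (median -0.071), and their median ran -0.34 (without KPC replicate 2) to 0.19 (without KPC replicate 1) with 1 tumour left out. The replication helicase genes Mcm2 and Mcm6 were at -0.58 (SE 0.28) and -0.43 (SE 0.22), and 2 further Mcm6 probes gave -3.61 and -0.39. Mcm6 was at -0.24 without KPC replicate 1.

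Genes of MHC class II antigen presentation had higher means in the cKO tumours for 8 of 9 members (median 1.28), and for 8 in the blocked fit. The median rested in part on single tumours and ran 0.48 (without Twist cKO replicate 2) to 1.73 (without Twist cKO replicate 1) with 1 left out. The class II chain gene H2-Aa was at 6.74, 6.96 and 7.67 in the Twist cKO tumours and 8.54, 8.54 and 9.96 in the Snail cKO tumours, against 5.55, 5.12 and 7.23 in the KPC tumours. The cKO tumours were higher except where Twist cKO replicates 1 and 2 lay below KPC replicate 3, and the difference was 2.10 (SE 0.53) and 2.85 in the blocked fit. It was 3.05 in Snail cKO and 1.16 in Twist cKO. H2-Ab1, the partner chain, was at 1.92 (SE 0.94), nearly alike in both groups (1.91 and 1.92) and on its other 2 probes (1.997 and 1.59), and was at 1.21 without KPC replicate 1. With KPC replicate 1 and Twist cKO replicate 2 left out the list counted 5 of 9 higher members. Markers of B and plasma cells, of which B cells carry class II, spanned -1.26 to 4.74 in the cKO tumours and -1.53 to 0.15 in the KPC tumours. The part of these cells in the class II values was not tested. Interferon response genes were higher for 10 of 12 (median 0.33), with Usp18 and Irf7 at 0.84 (SE 0.69) and 0.57 (SE 0.55), or 0.31 and 0.22 without Twist cKO replicate 2. The interferon median was -0.037 without that tumour.

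Macrophage and monocyte markers had lower means for 16 of 17 members (median -0.47, -0.025 in Twist cKO and -0.98 in Snail cKO). The scavenger receptor Cd163 was at 6.84, 6.31 and 7.77 in the Twist cKO tumours and 6.48, 6.30 and 7.43 in the Snail cKO tumours, against 11.08, 7.32 and 8.80 in the KPC tumours. KPC replicate 1 was the highest tumour by over 2, and the difference of -2.21 (SE 0.75) was -1.21 without it and -1.47 in the blocked fit. The mannose receptor Mrc1 was at -0.85 (SE 0.38), and at -0.46 without KPC replicate 1. The list median turned to 0.085 without KPC replicate 1. Without that tumour and Twist cKO replicate 2, 8 of 17 markers had higher means. List medians spanned -0.96 to 0.81 in the cKO tumours and -0.999 to 1.87 in the KPC tumours. Of neutrophil markers 5 of 10 were higher (median 0.079), and in the blocked fit 1 was (median -0.33). Named members were the granule genes Ngp, undetected on every KPC array and at least 1.28-fold higher, and Camp at 1.20 (SE 0.79). Both were lower in the blocked fit (-0.065 and -0.23), and Camp was at 0.73 without Twist cKO replicate 2. B and plasma cell markers were higher for 4 of 4 and T cell markers for 3 of 5, with list medians of 1.14 and 0.45. In the blocked fit 0 of 4 B and plasma cell markers and 3 of 5 T cell markers were higher. Leaving out Twist cKO replicate 2 put Cd79b of the B cell receptor at 0.77 instead of 2.01, Cd22 at 0.14 instead of 0.96 and the T cell receptor gene Cd3e at 0.40 instead of 1.39. Without it the list medians were 0.24 and -0.046, and in the blocked fit Cd79b was at -0.12 and Cd22 at -0.13. Cd3e was undetected on every KPC array, which makes it at least 2.01-fold higher in the cKO tumours as a group. That bound rests on Twist cKO replicate 2, without which the log2 difference was the 0.40 given above. Cd8b1 was at -0.54 on its brightest probe and at 2.18 on another.

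Exocrine genes make the digestive enzymes of the pancreas. All 23 acinar cell markers tested had higher means in the cKO tumours (median 1.33, 1.25 in Twist cKO and 1.55 in Snail cKO), 22 of 23 did in the blocked fit and 23 with KPC replicate 1 and Twist cKO replicate 2 left out. The size depended on the tumours used, with a median that ran 0.62 (without Snail cKO replicate 3) to 2.17 (without KPC replicate 2) when 1 was left out and was 3.11 in the blocked fit. The amylase gene Amy2a5 was at 12.50, 11.13 and 11.50 in the Twist cKO tumours and 8.61, 7.16 and 13.53 in the Snail cKO tumours, against 5.90, 11.24 and 7.15 in the KPC tumours. The groups overlapped, since KPC replicate 2 lay among the higher cKO tumours, and the difference was 2.64 (SE 1.52), 4.41 in the blocked fit and 1.27 on a second probe. It was 1.54 without KPC replicate 1. Zg16, a protein of the zymogen granule, was at 2.82 (SE 1.86), and at 1.30 without Snail cKO replicate 3. Detection of Zg16 was on 1 KPC array and 4 cKO arrays. The acinar medians of single tumours spanned -1.50 to 3.43 in the cKO tumours and -1.79 to 0.86 in the KPC tumours, so that Twist cKO replicate 2 and Snail cKO replicate 2 were close to the 2 lower KPC tumours. Markers of islets were higher for 3 of 9 (median -0.13), and in the blocked fit for 8 (median 1.15). Their median ran -0.88 (without KPC replicate 1) to 1.09 (without KPC replicate 2) with 1 tumour left out, and G6pc2 and Scg2 were at 0.21 and 0.29. Duct cell markers were higher for 5 of 8, with medians of -0.79 in Twist cKO and 1.02 in Snail cKO, and for 8 of 8 in the blocked fit. The Twist cKO value was set by replicate 2, since the duct medians of single tumours were 1.16, -4.63 and 0.60 in Twist cKO and 0.052, 1.27 and 1.61 in Snail cKO, against -2.41, 1.06 and 1.76 in KPC. The pooled median of 0.18 ran -1.24 (without KPC replicate 1) to 1.03 (without Twist cKO replicate 2) with 1 tumour left out. The water channel gene Aqp5 was at 9.18, 4.68 and 8.24 in the Twist cKO tumours and 10.04, 10.62 and 11.63 in the Snail cKO tumours, against 6.90, 7.81 and 9.69 in the KPC tumours. Twist cKO replicate 2 was far below the other cKO tumours, and the pooled difference was 0.93 (SE 1.000) and 0.31 without KPC replicate 1. The duct factor gene Sox9 was at 10.38, 5.81 and 12.74 in the Twist cKO tumours and 11.47, 11.76 and 12.99 in the Snail cKO tumours, against 11.99, 12.91 and 13.09 in the KPC tumours. Twist cKO replicate 2 was again the lowest, and the difference of -1.80 (SE 1.26) was -0.85 without Twist cKO replicate 2 and 0.20 in the blocked fit. Mucinous and gastric markers were higher for 9 of 13 (median -0.20 in Twist cKO and 1.55 in Snail cKO) and for 13 in the blocked fit. Their pooled median of 0.28 ran -0.021 (without Snail cKO replicate 3) to 1.08 (without KPC replicate 2) with 1 tumour left out. The trefoil factor gene Tff3 was at 1.79 (SE 1.28) and at 0.85 without Snail cKO replicate 3, and Anxa10 at 1.23 (SE 1.08) and at 0.38 without KPC replicate 1, with 0.12 on another Anxa10 probe.

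**Figure D5:**
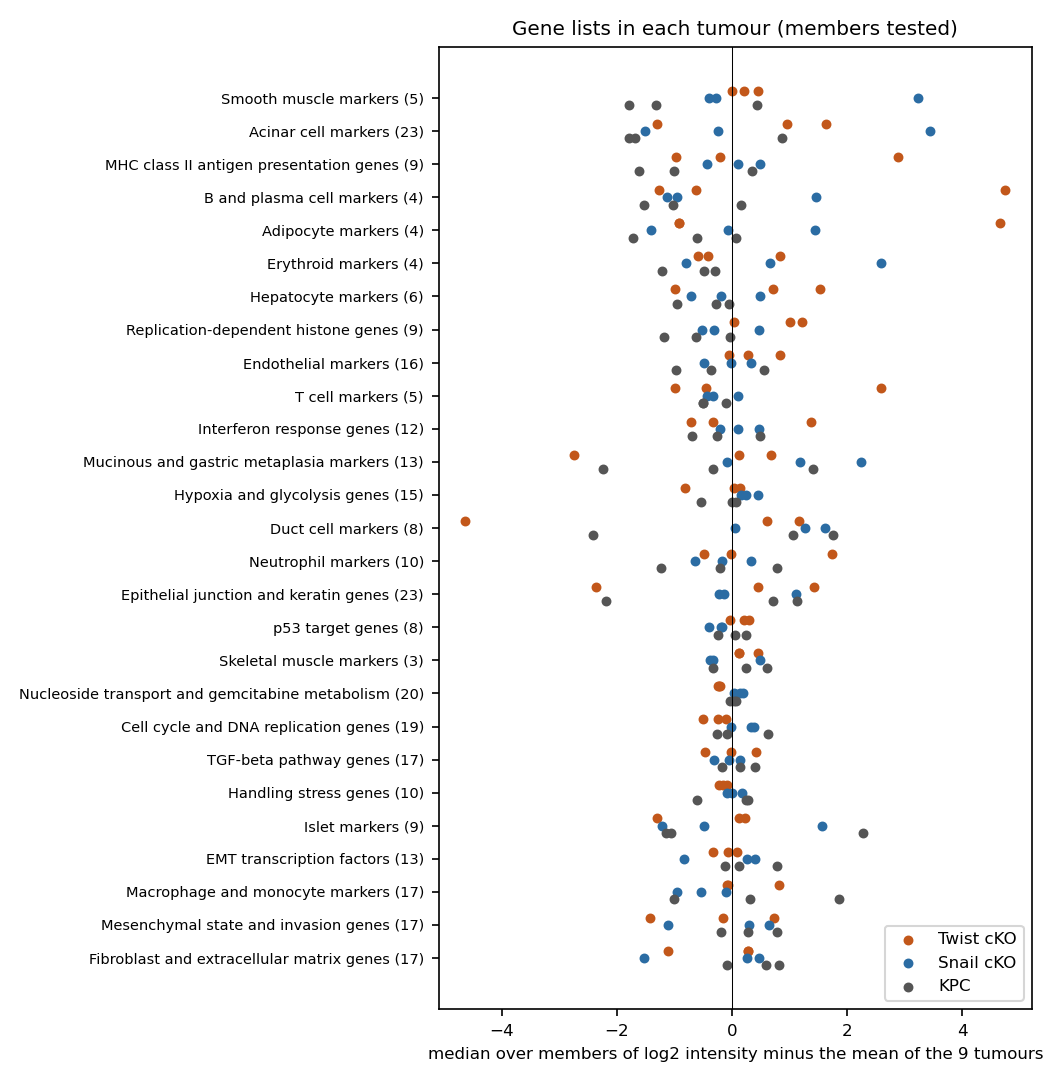
Median, over the tested members of each of 27 gene lists (number in brackets), of the log2 intensity minus its mean over the 9 tumours, with 1 point per tumour coloured by group and lists ordered by their pooled difference. The cKO and KPC points overlap in every list, and Twist cKO replicate 2 forms the highest point for B and plasma cell (4.74) and adipocyte (4.65) markers and the lowest for duct cell markers (-4.63).

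Markers of other tissue components varied with single tumours. For smooth muscle, higher means were found for 4 of 5 (median 1.40), with the myosin gene Myh11 at 2.02 (SE 0.96) and the desmin gene Des at 1.75 (SE 0.98), or 1.31 and 1.11 without Snail cKO replicate 3. Detection of Myh11 was on 1 KPC array and 6 cKO arrays. Endothelial markers had higher means for 15 of 16 (median 0.45), for 8 in the blocked fit and for 7 with KPC replicate 1 and Twist cKO replicate 2 left out. The junction gene Cldn5 was at 1.23 (SE 0.73), and at 0.45 without KPC replicate 1, and the diaphragm gene Plvap at 0.77 (SE 0.56), and at 0.37 without KPC replicate 3. The smooth muscle median ran 0.70 (without Snail cKO replicate 3) to 2.09 (without KPC replicate 2) and the endothelial median 0.11 (without KPC replicate 1) to 0.85 (without KPC replicate 2) with 1 tumour left out. Erythroid genes were higher for 4 of 4, with the haemoglobin gene Hba-a1 at 1.62 (SE 0.92) and Slc4a1 at 1.03 (SE 0.57), or 0.98 without KPC replicate 2 and 0.62 without Snail cKO replicate 1. Detection of Slc4a1 was on 1 KPC array and 4 cKO arrays. Hepatocyte genes were higher for 5 of 6, with the plasma protein genes Ahsg at 1.22 (SE 0.81) and Fga at 0.80 (SE 0.51). Fga was at 1.75 in Twist cKO and -0.15 in Snail cKO, where it was detected on 0 of 3 arrays, and the pooled value was 0.45 without Twist cKO replicate 3. Adipocyte markers were higher for 4 of 4, with Pparg at 1.12 (SE 0.81), 0.19 without KPC replicate 1, and Cidec at 1.32, 0.20 without Twist cKO replicate 2. The adipocyte median of 1.13 was 0.052 without Twist cKO replicate 2. Of skeletal muscle markers 2 of 3 were higher, and 1 in the blocked fit, with Tnnt3 at 0.29 and Mylpf at -0.27 (0.16 on another probe).

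Genes of nucleoside transport and gemcitabine metabolism did not have a common direction. Higher means were found for 11 of 20 members (median 0.019), and for 9 in the blocked fit. The list medians were -0.23, -0.25 and -0.20 in the Twist cKO tumours and 0.14, 0.20 and 0.037 in the Snail cKO tumours, against 0.079, 0.044 and -0.03 in the KPC tumours. The Twist cKO tumours were thus all below KPC and the Snail cKO tumours were not. Cda, the deaminase that inactivates gemcitabine, was at 8.21, 4.80 and 7.44 in the Twist cKO tumours and 9.43, 7.53 and 8.58 in the Snail cKO tumours, against 7.02, 5.68 and 6.63 in the KPC tumours. Its pooled difference of 1.22 (SE 0.75) was 0.37 in Twist cKO, where replicate 2 was near background, and 2.07 in Snail cKO. The nucleotidase gene Nt5c was at -0.43 (SE 0.28).

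Of hypoxia and glycolysis genes 11 of 15 were higher (median 0.21, or 0.0087 without KPC replicate 1), 12 in the blocked fit and 12 with KPC replicate 1 and Twist cKO replicate 2 left out. Pdk1, the kinase that holds back pyruvate oxidation, was at 1.04 (SE 0.48), 0.61 without KPC replicate 2 and 0.21 in the blocked fit. The hypoxia gene Ndrg1 was at 0.88 (SE 0.48), and 0.27 without KPC replicate 1. Of p53 target genes 5 of 8 were higher (median 0.059) and 4 in the blocked fit, with a median of -0.14 without KPC replicate 1. Both members named were lower. The cell cycle inhibitor gene Cdkn1a was at -1.38 (SE 0.65), with -0.32 and -0.28 on 2 other probes and -0.23 in the blocked fit, and Zmat3 was at -0.51 (SE 0.24). Of handling stress genes, which respond to the collection of tissue, 7 of 10 were lower (median -0.11), with Egr1 at -0.54 (SE 0.29) and -0.31 without KPC replicate 3, while Hspa1a, described above, belongs to the same list and was higher.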

How the data were processed

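RNA of 9 pancreas tumours was extracted with Trizol and hybridised to 1-colour Illumina arrays, per the labels' protocols, and the submitters' processing notes name GenomeStudio 5.0. The authors deposited an average bead intensity, linear and not normalized judging from its values, and, per the file headers, a detection p-value for 45281 probes, of which 36.9% (Snail cKO replicate 2) to 43.3% were detected per array. Their second deposited table of intensity values was a straight-line function of the first in each column (slopes 0.795 to 1.16, medians 9.3 to 23.3), so its direction follows the bead intensity, and the sources used here do not name the method.

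Intensities were processed with neqc (limma 3.58.1, R 4.3.3, offset 16, background from the detection p-values). Kept were probes with 1 gene symbol whose detection p-value was below 0.05 on 3 or more arrays, and the probe of highest mean represented each of 11537 of 19057 genes. Of the 45281 probes, 34885 had 1 symbol (34807 of them matched RefSeq), 18 several and 10378 none. A group-means model over 9 arrays (6 residual degrees of freedom, prior 2.57) gave the contrast of both cKO groups, weighted equally, with KPC, two-sided at 0.05. A probe undetected on every array of a group gives a bound against the higher of its own and each array's lowest detected signal.

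Named genes were Twist1, Snai1, up to 15 shared genes per direction, all EMT transcription factors and up to 4 members of each of 27 lists of lowest p, of which the first 2 and any others with an unadjusted p under 0.05 are given, a choice made after their values were seen. The lists were of EMT factors, epithelial, mesenchymal, fibroblast, nucleoside, cell cycle, histone, TGF-beta, hypoxia, p53 target, interferon, class II and stress genes, and of cell type markers. Members and lists were chosen with earlier results of these data known. The fit was tested on simulated data. Alternatives were other background correction, scaling, filters, probe choice, array weights, the array set as a block or set 1 alone, and tumours left out. A few listed genes are not analysed here.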

Additional observations from a re-analysis of the deposited data

Results flagged for a closer look

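Among 110 sets of 6 cKO values (single genes and list medians), 13 had 1 tumour whose gap to the other 5 passed Dixon's critical value (for 6 values). Chance does so for about 1 in 20 independent sets. These sets share the same tumours and in part the same genes, so the count cannot show an excess over chance. In most of the 13 the tumour was Twist cKO replicate 2. It was low for Sox4 (6.95, next 9.93), Sox9 (5.81, next 10.38), Krt20 (5.89, next 10.22), and the list medians of hypoxia and glycolysis genes (-0.81, next 0.035) and duct cell markers (-4.63, next 0.052). It was high for Gsc (6.46, next 5.02), Cd3e (10.45, next 6.11), Cd22 (9.85, next 6.12) and the median of T cell markers (2.59, next 0.10). Snail cKO replicate 2 was low for Cyp7b1 (7.33, next 8.19) and for Mrc1 (10.24, next 11.07). Snail cKO replicate 3 was high for the median of smooth muscle markers (3.23, next 0.46), and Twist cKO replicate 3 for Ltbp2 (5.09, next 4.56).

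The list median of nucleoside transport and gemcitabine metabolism genes lay below the KPC mean in all 3 Twist cKO tumours and above it in all 3 Snail cKO tumours, 0.35 higher on average in Snail cKO than in Twist cKO. This difference between the groups was not tested.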

How the results depend on the processing

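No gene passed the test under any of the 20 alternatives run (0 in each, by limma). The 332 genes with an unadjusted p under 0.05 became 741 with no detection filter, 157 in the blocked fit, 879 with array weights and 518 with KPC replicate 1 and Twist cKO replicate 2 left out, and 254 to 555 when each tumour was left out in turn. The 741 are of all 19057 genes on the array, and the other counts are of 11537 genes. The 223 genes with all cKO tumours on one side became 562 with no filter, 143 when detection on all 9 arrays was required, 1763 within array set 1, 1211 without the same 2 tumours and 293 to 859 leaving out 1 tumour, where fewer tumours have to lie apart. With no filter the share was above 0.0238, the fraction of orderings of 6 and 3 tumours without overlap. That fraction is larger with fewer tumours. The 21 genes with both groups also at least 1 apart became 4 with no background correction, 10 with detection on all arrays, 148 within set 1, 123 without the 2 tumours and 25 to 121 leaving out 1, alternatives chosen after seeing the data. All 18 named shared genes kept their sign wherever they were tested. They were chosen with all cKO tumours on one side of all KPC tumours. Leaving out tumours, array weights, set 1 alone, the blocked fit and a single cKO group therefore could not change a sign. Nor could the lack of background correction, since quantile normalization uses only the ranks on each array. The other filters and the deposited values, a straight-line function of the same intensities, left little room for a change. With no background correction, which compresses low intensities, 12 shrank by more than 1.5 times, and 10 were tested with detection on all arrays. Hspa1a and Klhl32 shrank as far with array weights, Hspa1a also without the 2 tumours and Kif3b with the median over probes. Among 83 named genes, 14 changed sign in the fit with the array set as block and, with the same values, within set 1: Snai1 to 0.093, Snai2 to 0.13, Zeb2 to 0.28, Prrx1 to 0.23, Sox4 to 0.45, Pmepa1 to 0.14, Mmp14 to 0.25, Ngp to -0.065, Camp to -0.23, Sox9 to 0.20, Cd8b1 to 0.087, Cd79b to -0.12, Cd22 to -0.13 and G6pc2 to -0.012. With KPC replicate 1 and Twist cKO replicate 2 left out, sign changes took Snai1 to 0.12, Twist2 to 0.13, Snai2 to 0.0022, Snai3 to -0.73, Zeb2 to 0.046, Prrx1 to 0.057, Gsc to 0.17, Cidec to -0.19 and G6pc2 to -0.012. With array weights they took Snai2 to 0.054, Snai3 to -0.34, Gsc to 0.082, Plvap to -0.063, G6pc2 to -0.031 and Scg2 to -0.19, and with the median over probes Tcf3 to -0.032 and Cd8b1 to 0.82. Leaving out 1 tumour moved Snai1 from -0.71 to -0.13, Cidec from 0.20 to 1.91, G6pc2 from 0.035 to 0.37, Twist2 from -1.28 to 0.22, Snai2 from -0.88 to 0.089, Snai3 from -0.56 to 0.69, Zeb1 from -0.45 to 0.15, Zeb2 from -0.66 to 0.10, Prrx1 from -0.57 to 0.23, Sox4 from -0.88 to 0.10, Gsc from -0.50 to 0.46 and Scg2 from -0.016 to 0.88. The cause of these changes was not tested. The block rests on replicates 1 and 2 against replicate 3 of the cKO groups, so array set and tumour cannot be told apart. No paired analysis was possible because the labels give each mouse a number of its own.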
